A study of Mus musculus with 4 samples.

Results

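The genes described here encode SWI/SNF subunits, CHD and other ATP-dependent remodellers, ARID proteins and bromodomain proteins of mouse chromatin. They were chosen by name, as the genes on the array whose symbols begin with Smarc, Arid (Arid3a left out), Ino80, Baz or Brd, or with Chd and a digit. A gene also had to be well above background, by the scanner software's own flag, on at least 1 of the 4 arrays. This gave 37 of the 49 genes so named, out of 17732 genes of all kinds that met the same background criterion. The 12 without such a signal were Arid5b, Brd8, Brd9, Brdt, Chd1, Chd5, Chd7, Ino80d, Smarca1, Smarca2, Smarcad1 and Smarcd1. The study set progenitors lacking Ezh2 beside normal ones at a fetal and an adult site of blood formation. Total RNA came from erythrocyte/megakaryocyte progenitors (MEP), the bipotent precursors of red cells and platelets, of C57BL/6 mice. The 4 groups were Ezh2-null and wild-type MEP of fetal liver from E14.5 embryos, and Ezh2-null and wild-type MEP of adult bone marrow. Each group had 1 one-colour Agilent array, so a difference between 2 groups has no replicate check and no p-value is given for it. How Ezh2 was deleted, and how many animals gave each RNA, was not given in the sources used here.

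Chromatin remodellers use ATP to slide, space, eject or exchange nucleosomes, and bromodomain proteins bind acetylated lysines on histones. SWI/SNF complexes open chromatin around Smarca4 or Smarca2 and, from genetics in Drosophila, are known to oppose Polycomb repression, whose methyltransferase in mammals is Ezh2. In red cell precursors, Smarca4 takes part in globin gene activation, Smarca5 is needed for definitive erythropoiesis in mice, the Chd4 complex NuRD works with the Gata1 cofactor Zfpm1, and Brd3 binds acetylated Gata1.

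Each value rests on hybridisation to a probe of 60 bases, and several members had probes that disagreed, so the first 30 bases of the probes that the results turn on are shown (5′ to 3′, mm9, coordinates of the whole probe). Capitals mark a run of 12 or more bases made only of C and T.
Arid1a, chr4:133236274-133236333, minus strand: gctgttggacatctccgtgtcaccactgat
Arid1a, chr4:133235092-133235151, minus strand: ggtgtgaaaaagttctaggttcagttgaag
Smarca4, chr9:21507751-21507810, plus strand: ccagcgggtatgtcagtgtcactggagtca
Smarca4, chr9:21483531-21483590, plus strand: ttctcgccaccgcaaggaggtagactacag
Smarca5, chr8:83223865-83223924, minus strand: ggtacataagcagttctccatttttctaag
Smarcc1, chr9:110140717-110140776, plus strand: gtgtgtatctctctctgTCTCTCTCTCTCT
The members carried 64 probes. A single probe stood for 20 members, and the other 17 were represented by their brightest probe. The Smarcc1 probe was 71.7% C and T, with a longest run of 13 such bases.

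RefSeq promoter windows (assembly GRCm38.p6, from 250 bases before the start to 50 after) were found for 29 of the 37 members, 36 windows in all. The 250 bases before the start are shown for Smarca5, Chd4 and Brd7, whose genotype differences were furthest apart between the sources among members above background on all 4 arrays, with each CpG in capitals (5′ to 3′ on the gene's strand).
Smarca5, chr8:80739460-80739709, minus strand: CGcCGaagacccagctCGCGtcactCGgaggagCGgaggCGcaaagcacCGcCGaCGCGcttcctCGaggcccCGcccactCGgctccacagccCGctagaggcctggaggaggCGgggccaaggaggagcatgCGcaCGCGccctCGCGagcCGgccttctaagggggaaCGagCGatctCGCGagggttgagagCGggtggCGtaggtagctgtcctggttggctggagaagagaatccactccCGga
Chd4, chr6:125095913-125096162, plus strand, the second of its windows: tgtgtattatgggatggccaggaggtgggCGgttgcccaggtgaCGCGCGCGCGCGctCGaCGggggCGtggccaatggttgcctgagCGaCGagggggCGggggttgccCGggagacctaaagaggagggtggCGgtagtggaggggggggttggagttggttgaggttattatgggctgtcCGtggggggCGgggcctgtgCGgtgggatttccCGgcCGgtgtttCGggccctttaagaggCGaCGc
Brd7, chr8:88362173-88362422, minus strand: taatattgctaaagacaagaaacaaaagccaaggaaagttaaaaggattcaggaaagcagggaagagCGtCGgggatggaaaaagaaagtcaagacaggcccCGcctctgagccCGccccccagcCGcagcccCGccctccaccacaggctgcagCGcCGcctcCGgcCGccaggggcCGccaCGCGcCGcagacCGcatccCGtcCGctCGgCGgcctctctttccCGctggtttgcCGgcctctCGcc
These stretches held 29 CpGs for Smarca5, 23 for Chd4 and 22 for Brd7. Observed over expected CpG was above 0.6 in 32 of the members' 36 windows (88.9%), against 60.4% of 12957 windows of all genes above background and 35.8% of 32851 promoter windows in all. Their median GC content was 65.5%, against 59.3% and 52.7% in those sets. On either strand, GATAAG, which holds the core bound by GATA factors, was found in 5 windows (13.9%), against 5.71% of windows of genes above background. GGAAGT, which holds the core bound by ETS factors, was in 4 (11.1%), against 26.5%. CCAAT was in 12 (33.3%), against 37.5%, and TATAAA in 2 (5.56%), against 8.94%.

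Some facts of the arrays bear on every value. The Ezh2 probe gave 194 units on the Ezh2-null and 33.5 units on the wild-type fetal liver array, and 70.02 units on the Ezh2-null and 35.4 units on the wild-type bone marrow array. The units are scanner intensities scaled to a common 75th percentile. The Ezh2 probe was thus brighter on both arrays labelled Ezh2-null, and whether it lies in the deleted part was not given in the sources used here, so every direction below rests on the labels. Of 10 erythroid and megakaryocyte markers, 9 or 10 were above background on each array. They summed to 11350 units in Ezh2-null and 16568 units in wild-type fetal liver, and to 14941 and 12130 units in bone marrow. In Ezh2-null fetal liver, Kit (3.77-fold) and Tfrc (3.34-fold) were higher and Epor (2.34-fold) lower. In Ezh2-null bone marrow, Pf4 (3.18-fold) and Klf1 (3.17-fold) were higher and Tfrc (2.14-fold) lower. No other marker of this list reached 2-fold by genotype. Of 9 lymphoid markers on the array, 6 were above background in Ezh2-null bone marrow, against 3 in wild-type bone marrow, with summed levels of 3937 and 195.7 units. Ebf1, Rag1 and Il7r were not above background there. The hepatocyte markers summed to 182 units in Ezh2-null and 718 units in wild-type fetal liver, with 3 and 5 of 10 above background and Alb and Afp below it on both. Granulocyte and macrophage markers summed to 85748 and 105591 units on those fetal arrays, with 5 and 4 of 8 above background and Elane, Ctsg and Lyz2 below it on both. Itgam alone gave 85201 and 105022 units of these sums, and no other marker of the list was above 461 and 477 units. The part of these markers in the results was not tested. Across 12880 probes the bone marrow arrays correlated at r = 0.982 and all other pairs between 0.915 and 0.937. All 4 arrays shared 1 slide.

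The background flag that chose the members also gives how many were detected on each array, so these numbers are a description. At least 1 probe was above background for 35 of the 37 members in Ezh2-null and for 21 in wild-type fetal liver, that is 94.6% and 56.8%, against 87.7% and 75.1% of all 17732 genes. In bone marrow, 29 members were above background in Ezh2-null and 26 in wild-type MEP, or 78.4% and 70.3%, against 79.2% and 79.1% of all genes. Only 18 members (48.6%) were above background on all 4 arrays, against 63.6% of all genes. Of 6 members seen on a single array, Arid4a, Arid4b, Baz2b and Chd6 were above background in Ezh2-null fetal liver alone, and Baz2a and Chd3 in wild-type bone marrow alone. The lowest signal among probes above background was 12.6 units on the Ezh2-null and 19.3 units on the wild-type fetal liver array, and 9.79 units on the Ezh2-null and 11.1 units on the wild-type bone marrow array. Wild-type fetal liver thus had the highest limit. In such bulk RNA, fewer cells of a type and less RNA per cell cannot be told apart.

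**Figure D1:**
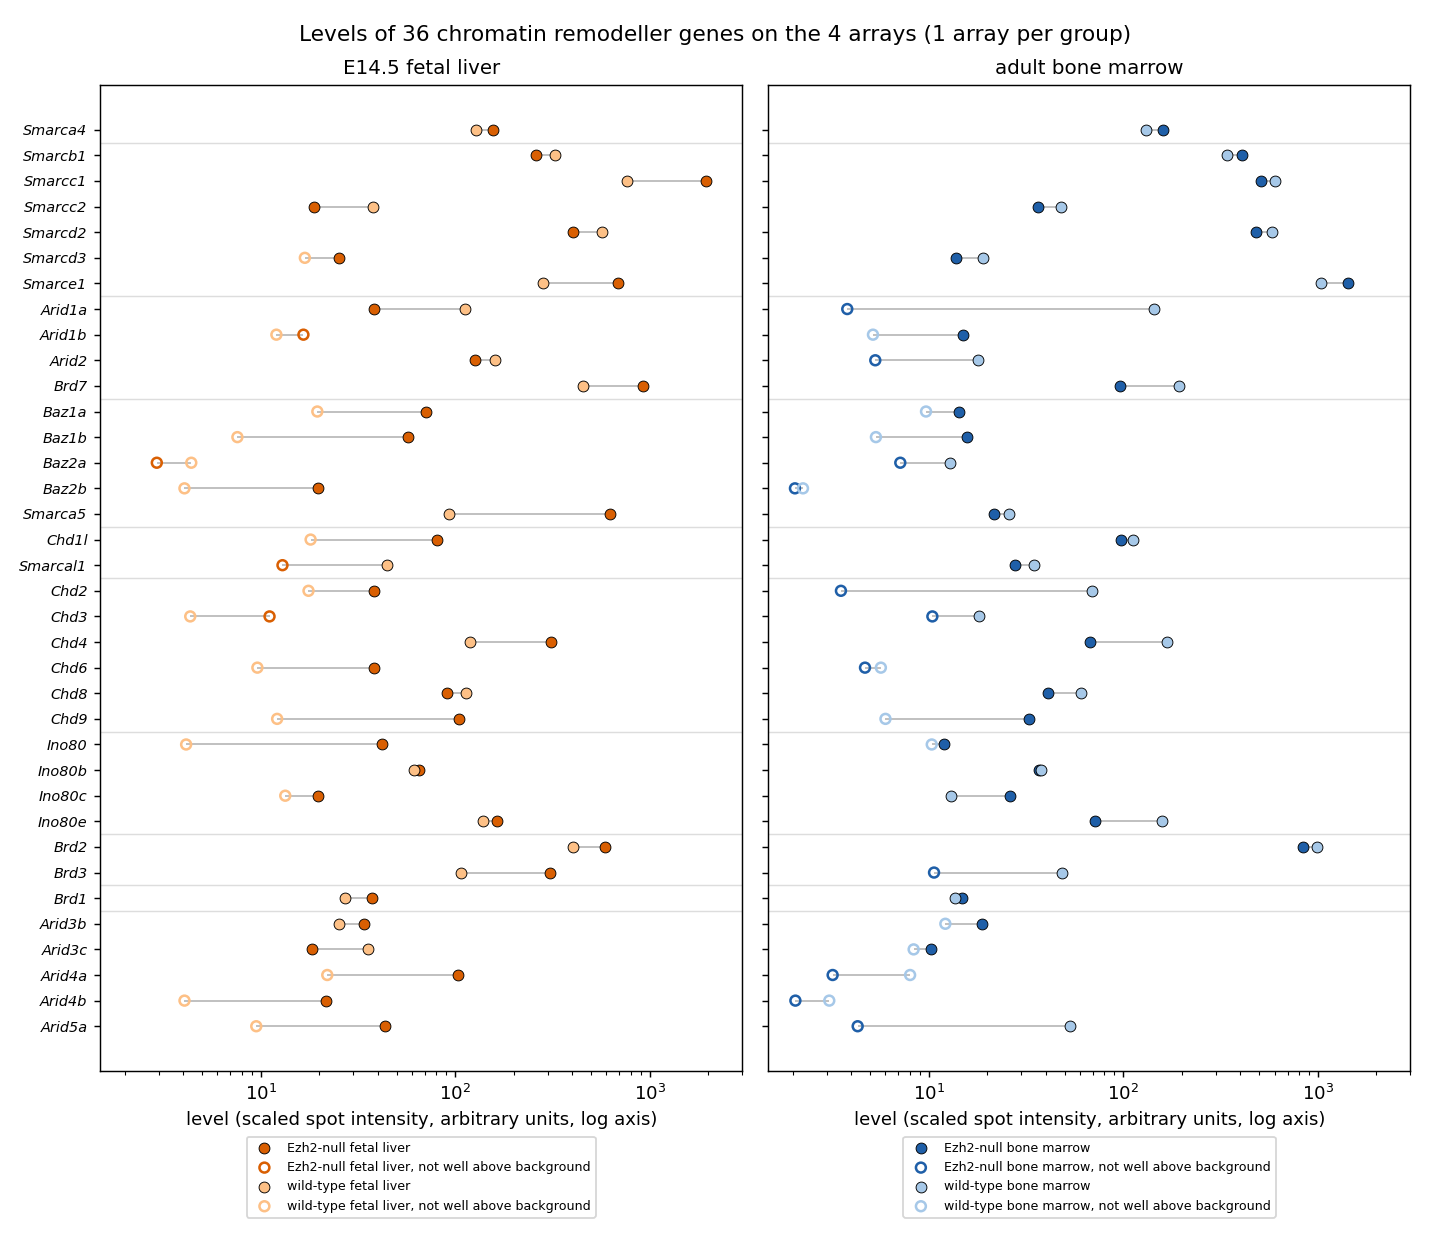
Level of 36 of the 37 genes (scaled spot intensity, log axis) in E14.5 fetal liver (left panel) and adult bone marrow (right panel), with Ezh2-null in the darker and wild type in the lighter colour, 1 array each. Open circles are signals not well above background, and the genes are ordered by complex. Smarca5 is at 626 units in Ezh2-null and 92.6 units in wild-type fetal liver, and at 21.7 and 25.9 units in Ezh2-null and wild-type bone marrow.

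In fetal liver the largest measured difference was that of Smarca5. By their brightest probes, Smarcc1, Smarce1, Brd7, Chd4 and Brd3 also stood higher in Ezh2-null MEP, while Arid1a and Smarcc2 stood lower. For Brd3 and Arid1a, a further probe lay in the other direction. Among the 20 members whose representative probe was above background on both arrays, 6 were at least 2-fold higher in Ezh2-null MEP (30%, where 12.6% of all 12437 such genes were) and 2 were at least 2-fold lower (10%, where 13.8% were). Their median log2 difference was 0.26, against -0.30 over all such genes. With signals near background included, where a gene above background on 1 array only gets a lower bound for its fold, 34 members were compared. Of these, 13 were at least 2-fold higher, 7 of them by a bound, and 3 were lower, 1 by a bound. Among all genes so compared, 15.4% were higher and 13.5% lower, 28.9% in all. These larger counts hold members that met the background criterion through the brighter array alone and so had to differ.

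Among the SWI/SNF core and accessory subunits, Smarcc1, a scaffold protein of the complex, measured 1958 units in Ezh2-null and 762 units in wild-type fetal liver, a 2.57-fold difference (log2 1.36). Its other 2 probes were above background in Ezh2-null fetal liver alone, at 116 and 21.7 units. Smarce1, the HMG-box subunit that contacts DNA, measured 691 units in Ezh2-null and 283 units in wild-type fetal liver, 2.44-fold higher (log2 1.29). Its second probe lay in the same direction, at 98.7 and 37.1 units (log2 1.41). Smarcc2, the paralogue of Smarcc1, was on the opposite side, at 18.8 units in Ezh2-null and 37.9 units in wild-type fetal liver, 2.02-fold lower (log2 -1.01). Smarcb1, the core subunit known as a tumour suppressor, and Smarcd2, needed for granulocyte formation in mice, were within 2-fold. Smarcb1 measured 259.9 units in Ezh2-null and 328 units in wild-type fetal liver, and Smarcd2 406 and 567 units.

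Smarca4, the only SWI/SNF ATPase above background, was within 2-fold by its brightest probe, at 156 units in Ezh2-null and 129 units in wild-type fetal liver (log2 0.28). Its other probe, upstream in the transcript, gave 56.2 and 199.4 units, a log2 difference of -1.83. The probes thus ran opposite ways, and no direction is given for Smarca4.

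The targeting subunits, which steer SWI/SNF to its sites, were split. Brd7, of the PBAF form, measured 920.1 units in Ezh2-null and 454 units in wild-type fetal liver, 2.03-fold higher (log2 1.02), which is just past the 2-fold threshold. Arid1a, of the BAF form, measured 38.3 and 112 units, 2.92-fold lower in Ezh2-null MEP (log2 -1.55). Its second probe, nearer the 3′ end, was above background at 27.8 units in Ezh2-null fetal liver and not in wild type (4.75 units), at least 1.44-fold higher. The Arid1a difference therefore changed direction with the probe. Arid2, the ARID subunit of PBAF, was within 2-fold, at 126 and 159.9 units (log2 -0.34).

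Smarca5, the ISWI ATPase that spaces nucleosomes, measured 626 units in Ezh2-null and 92.6 units in wild-type fetal liver. It was thus 6.77-fold higher in Ezh2-null MEP (log2 2.76), on its single probe. Of the BAZ proteins, which pair with ISWI ATPases, Baz1a, Baz1b and Baz2b were above background in Ezh2-null fetal liver and not in wild type. Baz1a, the partner of Smarca5 in the ACF complex, measured 71.2 units in Ezh2-null and 19.6 units in wild-type fetal liver, at least 3.63-fold higher. Further Baz1a probes gave bounds of at least 1.62-fold and 1.44-fold. Baz1b, the partner of Smarca5 in the WICH complex, measured 57.0 and 7.61 units, at least 2.95-fold higher. Its second probe was not above background on any array, and the log2 difference was 0.28 with all probes averaged. Baz2b was above background by little, at 19.7 units in Ezh2-null fetal liver, so that its bound was at least 1.02-fold.

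Chd4, the main ATPase of NuRD, measured 310.4 units in Ezh2-null and 119 units in wild-type fetal liver, 2.60-fold higher (log2 1.38). Chd9, another CHD remodeller, measured 104 units in Ezh2-null and 12.2 units in wild-type fetal liver, where it was not above background, at least 5.40-fold higher. Chd8, a CHD protein known to hold back Wnt target genes, was within 2-fold at 91.3 and 113 units. Chd2 and Chd6 lay just under the 2-fold threshold by their representative probes, with bounds of at least 1.99-fold and 1.98-fold. For Chd2 this depended on the probe. Further Chd2 probes gave 69.9 units in Ezh2-null and 4.05 units in wild-type fetal liver, at least 3.62-fold higher, and 45.2 and 4.20 units, at least 2.34-fold higher. No Chd2 probe was above background in wild type. Chd1l, a remodeller recruited by poly(ADP-ribose), measured 80.6 units in Ezh2-null and 18.1 units in wild-type fetal liver, where it was not above background, at least 4.18-fold higher. Smarcal1, which reanneals DNA at stalled replication forks, was not above background in Ezh2-null fetal liver (13.0 units) and measured 44.7 units in wild type, at least 3.45-fold lower. Its probe nearest the 3′ end was above background on both arrays, at 29.9 and 37.0 units (log2 -0.31).

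Ino80, the ATPase of the INO80 complex, measured 42.2 units in Ezh2-null fetal liver and was not above background in wild type (4.15 units), at least 2.19-fold higher. Its second probe, nearer the 3′ end, gave a bound of at least 1.07-fold (20.6 units in Ezh2-null fetal liver), and Ino80 came under 2-fold in 5 of 9 other settings. The complex's subunits Ino80b, Ino80c and Ino80e were within 2-fold by their brightest probes, with Ino80e at 165 units in Ezh2-null and 139.9 units in wild-type fetal liver. A second Ino80e probe was not above background in Ezh2-null fetal liver (13.3 units) and gave 47.0 units in wild type, at least 3.54-fold lower. Of the BET proteins, which read acetylated histones, Brd3 measured 307 and 107 units, 2.86-fold higher in Ezh2-null MEP (log2 1.51). Another Brd3 probe gave 66.5 and 76.6 units, a log2 difference of -0.20. Brd2 (592 and 405 units) was within 2-fold, and its second probe lay in the other direction (119.8 and 188.7 units). Among the other ARID proteins, Arid4a, which binds the retinoblastoma protein, measured 104 units in Ezh2-null fetal liver and 22.0 units, not above background, in wild type, at least 4.71-fold higher. Its other 2 probes were not above background on any array, and the difference was 0.00 with all probes averaged. Arid5a, which also binds RNA, measured 43.8 and 9.51 units there, at least 2.27-fold higher.

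In bone marrow the differences between genotypes were fewer, and those of at least 2-fold were mostly lower in Ezh2-null MEP. Among the 19 members above background on both bone marrow arrays, none was at least 2-fold higher (3.34% of all 12653 such genes were), and Brd7, Chd4 and Ino80e were at least 2-fold lower (15.8%, where 5.46% of all were). Their median log2 difference was -0.24, against -0.04 over all such genes. With bounds included, 33 members were compared, of which 1 was higher and 7 were lower, among them 1 and 4 by bounds. Of all genes so compared, 4.54% were higher and 7.74% lower, 12.3% in all.

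Chd4 measured 67.8 units in Ezh2-null and 168 units in wild-type bone marrow, 2.48-fold lower (log2 -1.31). Ino80e measured 71.4 and 159 units, 2.23-fold lower (log2 -1.16), and its second probe was not above background on either array. Brd7 measured 96.4 and 194 units, 2.02-fold lower (log2 -1.01), close to the threshold. Just on the other side, Ino80c had 26.2 units in Ezh2-null and 13.1 units in wild-type bone marrow, which is just short of 2-fold.

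The 4 lower members that rest on bounds were Arid1a, Arid5a, Brd3 and Chd2. Arid1a gave 3.82 units in Ezh2-null and 144 units in wild-type bone marrow, at least 14.7-fold lower, but its second probe was above background on both, at 21.4 and 28.9 units (log2 -0.43). Brd3 gave 10.7 units in Ezh2-null and 48.8 units in wild-type bone marrow, at least 4.57-fold lower, while another of its probes gave 32.5 and 34.6 units (log2 -0.09). Chd2 gave 3.54 and 69.1 units, at least 7.05-fold lower, and another probe was above background in Ezh2-null bone marrow alone, at 11.6 units. In these 3 genes a second probe was thus above background where the brightest was not. Arid5a, with its single probe, gave 4.32 units in Ezh2-null and 53.6 units in wild-type bone marrow, at least 5.47-fold lower. Chd9 was the 1 higher member, at 33.0 units in Ezh2-null bone marrow against 6.00 units, not above background, in wild type, at least 2.96-fold.

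The remaining members were under the 2-fold threshold in bone marrow by their representative probes. Arid2 was not above background in Ezh2-null bone marrow (5.32 units) and gave 18.0 units in wild type, at least 1.84-fold lower, and its second probe was at least 2.66-fold lower. Chd3, the other NuRD ATPase, was at least 1.74-fold lower by a bound. Smarca5 measured 21.7 units in Ezh2-null and 25.9 units in wild-type bone marrow (log2 -0.26). Smarcc1 was at 509 and 603 units (log2 -0.24), Smarce1 at 1432 and 1041 units (log2 0.46), and Smarca4 at 161 and 131 units (log2 0.29). The second Smarce1 probe was not above background in Ezh2-null bone marrow (10.9 units) and gave 48.4 units in wild type, at least 4.42-fold lower. Baz1a, Baz1b and Ino80 were above background in Ezh2-null bone marrow and not in wild type, as in fetal liver, with bounds of at least 1.29-fold, 1.42-fold and 1.08-fold. Chd1l, at 97.7 and 112 units, and Smarcal1, at 27.7 and 34.7 units, were within 2-fold, as was Smarcc2 at 36.7 and 48.0 units.

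Set side by side, the genotype differences of Brd7, Chd4, Brd3 and Arid5a had opposite signs in the 2 sources, each at least 2-fold both ways by its representative probe. Bounds included, 12 of 30 members compared in both sources were above 0 in fetal liver and below 0 in bone marrow (40%). The same held for 24.3% of all 13868 genes compared in both. By their representative probes, Arid5a and Chd2 were above background only in Ezh2-null fetal liver and wild-type bone marrow. Their signs could thus not have been the reverse. For the 15 members above background on all 4 arrays, the bone marrow difference minus the fetal liver difference had a median of -0.33 on the log2 scale, against 0.26 over all 11177 such genes, and was below 0 in 10. It reached 4-fold in 3 members, Smarca5 (-3.01), Chd4 (-2.69) and Brd7 (-2.03), all lower in bone marrow. Among all such genes, 9.4% reached 4-fold either way and 6.37% on the lower side. Smarcc1 (-1.60) and Ino80e (-1.39) came next, both by their brightest probes.

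**Figure D2:**
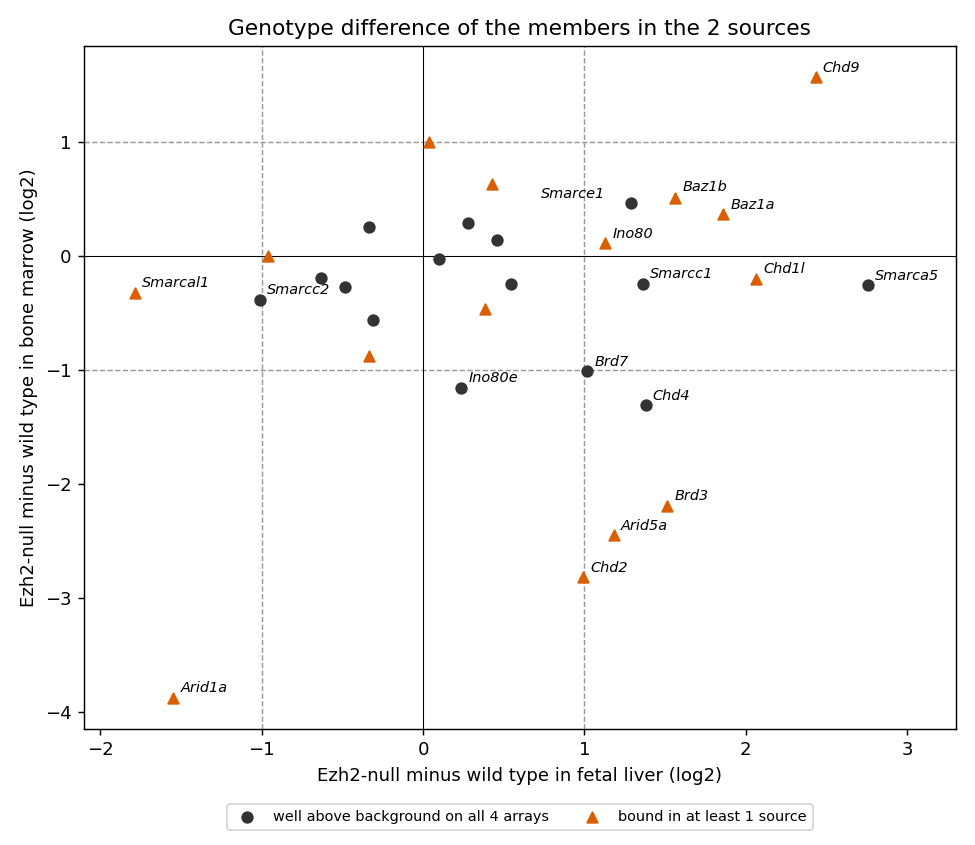
Ezh2-null minus wild type on the log2 scale in fetal liver (x axis) and bone marrow (y axis) for the 30 genes compared in both, 1 array per group. Circles are genes well above background on all 4 arrays, triangles have a bound in at least 1 source, and dashed lines mark 2-fold. Brd7, Chd4, Brd3 and Arid5a lie at the lower right, Smarca5 at the far right near 0 in bone marrow, and Arid1a, whose probes disagree, at the lower left.

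Between the sources, the direction of a difference depends on the scaling. The median of all genes for wild-type bone marrow over fetal liver was -0.58 on the log2 scale, and 0.75 when arrays were scaled to the spike-in controls. In Ezh2-null MEP it was -0.52, and 0.35 with the spike-in scaling. Members are therefore read relative to all genes. In wild-type MEP their median was 0.00 over 28 members, higher than the median of all genes by 0.58, with bounds of no size set to 0. That gap was 0.31 among genes above background on both arrays and 0.25 with quantile normalization. In Ezh2-null MEP their median was -1.15 over 35 members, lower than that of all genes by 0.63. These 35 include members such as Arid4a, which met the background criterion through Ezh2-null fetal liver alone and could only be lower. Among genes above background on both arrays, the median was -0.85 over 24 members, against -0.40 over all genes. These comparisons share no array with each other, but each shares one with each genotype comparison.

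In wild-type MEP, of 19 members above background on both arrays, 2 were at least 2-fold higher in bone marrow (10.5%, where 12.2% of all 11796 such genes were) and 5 lower (26.3%, where 31.1% of all were). With bounds, 5 of 28 were higher (where 13.1% of all genes were) and 7 lower (where 31.9% were), and 45% of all genes differed either way. Smarce1 was 3.68-fold higher in adult bone marrow, at 1041 against 283 units, and Brd2 was 2.46-fold higher, at 996 against 405 units. The second Brd2 probe was 4.45-fold lower in bone marrow, at 42.4 against 188.7 units, so no direction is given for Brd2. The second Smarce1 probe was 1.31-fold higher. Arid2 was 8.89-fold lower, at 18.0 units in bone marrow and 159.9 units in fetal liver, and a second probe was 3.82-fold lower. Smarca5 was 3.57-fold lower in bone marrow. Brd7, Brd3 and Brd1, a scaffold of a histone acetyltransferase complex, were 2.34-fold, 2.20-fold and 2.01-fold lower, Brd1 at 13.6 units in bone marrow and 27.3 units in fetal liver. Chd8, at 61.0 and 113 units, was 1.86-fold lower. Chd1l, Chd2 and Arid5a were higher by bounds, at least 5.82-fold, 3.58-fold and 2.78-fold. Among members above background on both arrays, the next higher were Chd4, Arid1a, Smarcc2 and Ino80e, all under 2-fold, from 1.41-fold down to 1.14-fold. The second Ino80e probe was above background in wild-type fetal liver alone, at least 4.22-fold lower in bone marrow.

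In Ezh2-null MEP the members lay lower in bone marrow than all genes did. Of 24 members above background on both arrays, 11 were at least 2-fold lower in bone marrow (45.8%, where 22.7% of all 12760 such genes were) and 1, Smarce1, was higher (where 10.7% of all were). The second Smarce1 probe was not above background in Ezh2-null bone marrow (10.9 units) and gave 98.7 units in Ezh2-null fetal liver, at least 9.01-fold lower, which is the opposite direction. With bounds, 20 of 35 were lower (where 27.1% of all genes were) and 2 higher (where 10.5% were), and 37.6% of all genes differed either way. Smarca5 was 28.9-fold lower, at 21.7 units in Ezh2-null bone marrow against 626 units in Ezh2-null fetal liver. Brd7 was 9.54-fold lower and Chd4 4.58-fold lower. Smarcc1, Baz1a, Baz1b, Ino80, Chd9, Chd8, Ino80e and Brd1 made up the rest. Of the 6 SWI/SNF core and accessory subunits, 1 was lower and 1 higher. Members such as Chd6 and Baz2b, which met the background criterion through Ezh2-null fetal liver alone, could only be lower here.

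Partner subunits that do not carry these names lay in both directions. Over all 5 partner lists, the fetal liver arrays allowed 49 comparisons, of which 10 were at least 2-fold higher in Ezh2-null MEP (20.4%, where 15.4% of all genes were) and 7 lower (14.3%, where 13.5% were). In fetal liver, 2 of 13 SWI/SNF partners were at least 2-fold higher in Ezh2-null MEP and 3 lower. Ss18, a SWI/SNF subunit, measured 1038 units in Ezh2-null and 240.4 units in wild-type fetal liver (log2 2.11), and Bicral was higher by a bound. Bcl7b (log2 -2.15), Bcl7c (-1.33) and Dpf2 (-1.30) were lower. Of 12 NuRD partners, the methyl-CpG binding Mbd2 (1.90), the histone deacetylase Hdac2 (a bound, at least 3.02-fold) and the histone-binding Rbbp7 (1.37) were higher, and Mbd3 (-1.18) and Cdk2ap1 (-1.01) lower. Mbd2, which is exclusive with Mbd3 in NuRD, measured 1006 and 269.4 units in Ezh2-null and wild-type fetal liver, and Mbd3 760.4 and 1721 units.

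Of 9 INO80 partners, the DNA-binding Yy1 was 5.56-fold higher in Ezh2-null fetal liver, at 131 against 23.6 units, and Nfrkb was lower by a bound. Of 3 ISWI partners, Pole3 was higher (1.53) and Chrac1 lower by a bound. Of 12 subunits of the SRCAP and TIP60 complexes, which exchange and acetylate histones, Morf4l1 (1.45) was higher, as were Ep400 and Trrap by bounds, and none was lower.

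In bone marrow, 2 of 49 partners were at least 2-fold higher in Ezh2-null MEP (4.08%, where 4.54% of all genes were) and 7 lower (14.3%, where 7.74% were). Trrap (at least 6.69-fold) and Pbrm1 (at least 3.58-fold), the PBAF subunit with several bromodomains, were higher in Ezh2-null MEP by bounds. Epc1 was 4.74-fold lower in Ezh2-null bone marrow, at 17.7 against 84.0 units. Nfrkb (-1.16), Chrac1 (-1.06) and Uchl5 (-1.03) were lower as well, as were Cecr2, Hdac2 and Actr6 by bounds. Hdac2 was thus at least 2-fold higher in Ezh2-null fetal liver and at least 2-fold lower in Ezh2-null bone marrow, both by bounds. Its representative probe was above background only in Ezh2-null fetal liver and wild-type bone marrow, so these signs could not have been the reverse.

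Members with several probes show how far 1 probe can be trusted. In fetal liver, 6 members had a further probe measured on both arrays, and it went the same way in 3 and the other way in Brd2, Brd3 and Smarca4. In bone marrow it went the same way in 2 of 5 and the other way in Brd2, Smarca4 and Smarcal1. Position in the transcript also moved with the fetal liver difference. The members' probes start at a median of 3633 bases into the transcript, against 1429 bases for all genes with a position. Over all genes measured on both fetal liver arrays, the 596 with the lowest positions had a median log2 difference of -0.47 and the 596 with the highest 0.31. In bone marrow the corresponding medians were -0.01 and -0.08. For bone marrow over fetal liver they were -0.50 and -0.83 in Ezh2-null MEP, and -0.90 and -0.74 in wild-type MEP. The next counts include bounds. They hold members such as Arid4a, which met the background criterion through Ezh2-null fetal liver alone and could not be lower there. Of the 17 members at or past position 3238.5, 8 were at least 2-fold higher in Ezh2-null fetal liver (47.1%), against 29.9% of all 2546 genes there. Of the 17 below it, 5 were higher (29.4%), against 12.8% of 13104 genes. The part of probe position in these differences was not tested beyond these values. With the position trend removed, 9 of 34 members were higher and 3 lower in Ezh2-null fetal liver, where 13.4% and 14.0% of all genes were. Brd3, Brd7, Chd4, Smarcc1 and Ino80 then came under 2-fold. For bone marrow over fetal liver in Ezh2-null MEP, 17 of 35 were then lower, where 27.8% of all genes were.

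**Figure D3:**
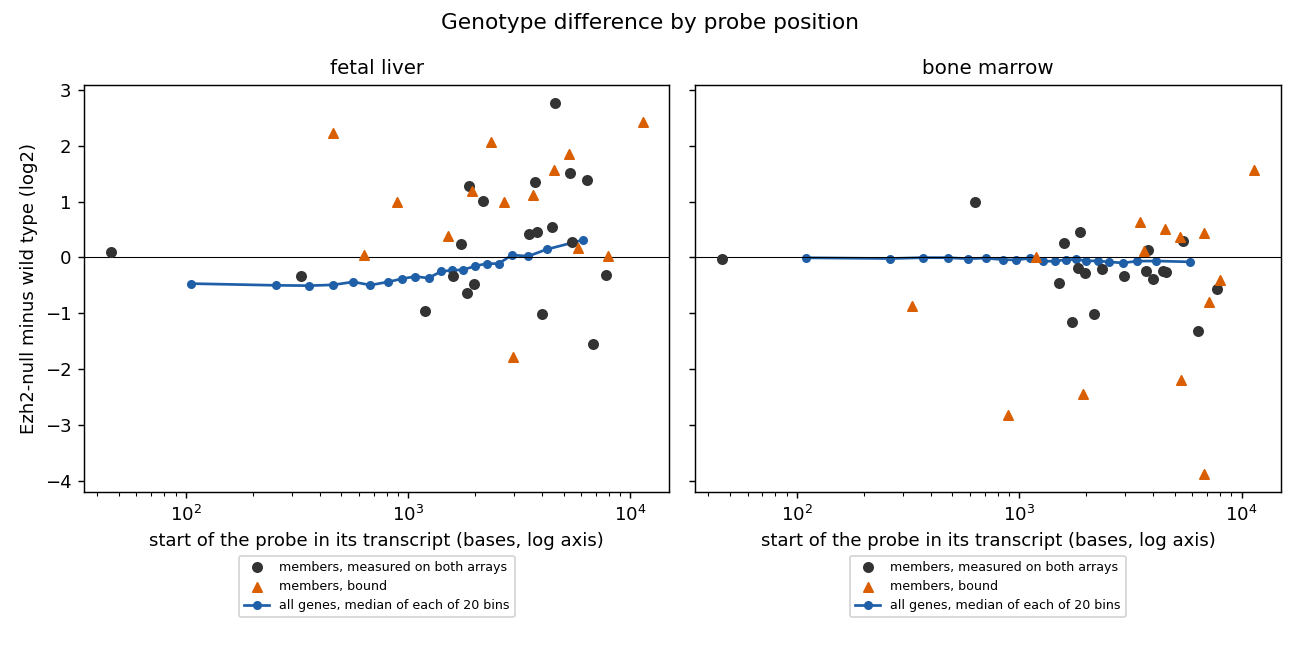
Ezh2-null minus wild type (log2) against the start of the representative probe in its transcript (bases, log axis), for fetal liver (left panel) and bone marrow (right panel). Circles are members measured on both arrays, triangles are bounds, and the line joins the medians of all measured genes in 20 bins of position. The line runs from -0.47 to 0.31 in fetal liver and stays near 0 in bone marrow.

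Smarca5 and Smarce1 were at least 2-fold higher in Ezh2-null fetal liver under all 10 other ways of processing, with log2 differences from 1.77 to 3.23 and from 1.04 to 1.76. For Smarca5, whose single probe was above background on both arrays, choosing probes or changing the background filter could not move the value. The settings moved the median of all genes in fetal liver between -0.46 and 0.24. The members' median stayed above it in each of the 11 settings plotted, by 0.23 to 1.03. The 1.03 came with no background filter, where 31703 genes entered but the members were still chosen by that filter. In the main setting the median includes members such as Arid4a, seen in Ezh2-null fetal liver alone, which could not be lower there. Among genes above background on both arrays the gap was 0.56. With normexp background correction the members' fetal median was 0.00, against -0.35 for all genes. There, 3 of 34 members were higher, where 4.83% of all genes were. Of all fetal liver genes past 2-fold, 53.3% were higher in Ezh2-null MEP, against 41.4% with the percentile over all probes, 42.5% with normexp and 82.9% with spike-in scaling.

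**Figure D4:**
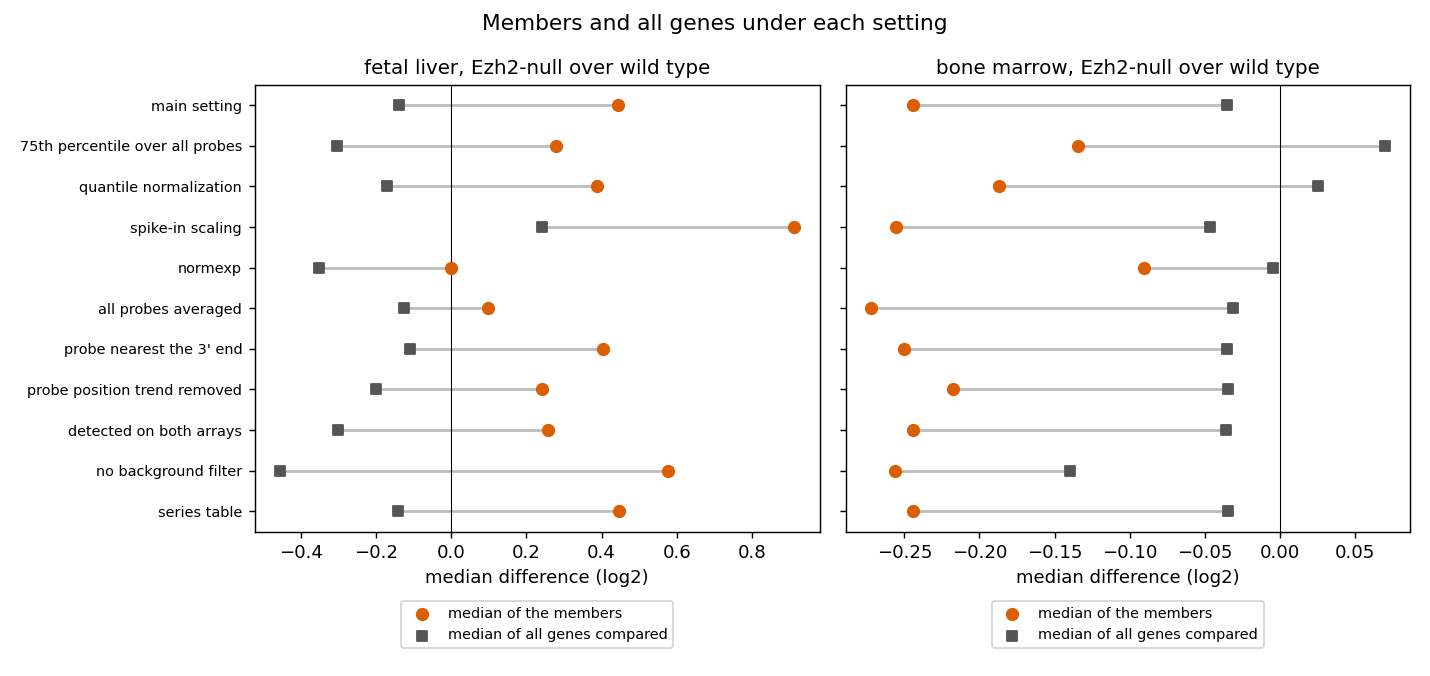
Median log2 difference, Ezh2-null over wild type, of the members (circles) and of all genes compared (squares) in fetal liver (left panel) and bone marrow (right panel), under the main and 10 other ways of processing. In fetal liver the members lie to the right of all genes in each setting, and in bone marrow to the left in each.

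A fit to all 4 arrays with genotype and source as terms leaves 1 residual degree of freedom and asks for a genotype difference shared by both sources. Fitted with limma over 16250 genes, it called no gene for genotype at a Benjamini-Hochberg adjusted p below 0.05, 0% of all, and the lowest adjusted p was 0.995. At an unadjusted p below 0.05 it had 278 genes (1.71%), among them 2 of 34 members, Arid1a and Chd9. For source it also called 0%, with a lowest limma adjusted p of 0.167 among the members, for Arid2, and 0.116 among all genes. There, 2649 genes (16.3%) and 5 members had an unadjusted p below 0.05.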

How the data were processed

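RNA of 4 MEP samples, 250 ng each, was labelled with Cy3 and hybridised per the labels' protocols. The deposited intensities were made by the authors with Agilent Feature Extraction 10.7.3.1, per the file headers; its processed signal has the background subtracted. The authors' deposited series table, an alternative, holds the same linear intensities to within 0.496% and no further normalization. Coordinates are mm9 as in the files. Here log2 processed signals were scaled to each array's 75th percentile, taken over 12880 probes that every array detected; 95 to 135 outlier spots per array were dropped, spots of a probe averaged, and a gene was represented by its brightest probe. Genes at least 2-fold apart were called (4-fold for the bone marrow genotype difference minus that of fetal liver). A probe above background on 1 array only was set against the other array's lowest detected signal or its own, if higher, which gives the bound. Gene names were updated through RefSeq; 9248 of 39429 probes kept the file's name. limma 3.58.1 in R 4.3.3 fitted all genes, with signals raised to 19.3 units, and was tested on simulated data. Any member could be named, though 1 is not reported here by name; levels are given for those past 2-fold by genotype and the 6 most different each way between sources in wild type. Partners are named where past 2-fold, at most 4 per list and comparison. The members and lists were chosen with earlier results of these data known. The number of arrays limits the precision. Promoter sequences are RefSeq's. Alternatives are in the closing section.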

Additional observations from a re-analysis of the deposited data

Results flagged for a closer look

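The genotype differences of 5 genes had opposite signs in the sources and were either at least 2-fold in both or, for genes above background on all 4 arrays, at least 4-fold apart. On the log2 scale, the bone marrow difference minus the fetal liver difference was -3.01 for Smarca5, -2.69 for Chd4 and -2.03 for Brd7, each above background on all 4 arrays. It was -3.71 for Brd3 and -3.64 for Arid5a, where a bound enters. With 1 array per group, none of these differences was tested. A second Brd3 probe gave -0.09 in bone marrow, and the other 4 genes had 1 probe each.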

How the results depend on the processing

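No paired analysis was possible because each group had 1 array and the labels give no replicate numbers. No array could be left out, since a comparison would lose a group and the fit its residual. Of the summary values, 94 stayed within the limits set (a count within 1.5 times) and 64 moved.

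With normexp, 3 of 34 members were higher and 0 lower in Ezh2-null fetal liver (median 0.00), where 4.83% and 6.53% of all genes were. In Ezh2-null bone marrow, 0 of 33 were higher and 3 lower (median -0.090), where 1.11% and 1.27% of all genes were. The medians of all genes were -0.35 in fetal liver and -0.0047 in bone marrow. For bone marrow over fetal liver, 2 were higher in wild type (median -0.24), and 0 higher and 12 lower in Ezh2-null MEP (median -0.77). Of all genes, 4.59% were higher in wild type (median -0.73), and 4.25% higher and 13.6% lower in Ezh2-null MEP (median -0.46). Normexp left 0 members at 4-fold in the bone marrow genotype difference minus that of fetal liver, and 5 called for source. Requiring detection on both arrays gave 6 higher in fetal liver (median 0.26), 0 higher and 3 lower in bone marrow, 2 higher between sources in wild type (median -0.34), and 1 higher and 11 lower in Ezh2-null MEP (median -0.85), with 1 called for source. At 3-fold, 5 were higher and 1 lower in fetal liver, 0 and 4 in bone marrow, and 3 and 3 between sources in wild type. Between sources in Ezh2-null MEP, 0 were higher at 3-fold. In the bone marrow genotype difference minus that of fetal liver, 1 reached 8-fold. Shares of all genes were not taken at 3-fold, for the 4-fold counts or for the fit under these settings.

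Averaging all probes gave 1 lower in fetal liver (median 0.10), where 12.8% of all genes were lower. Between sources in Ezh2-null MEP it gave 0 higher, where 9.57% of all genes were. In the difference of the genotype differences, 7 members reached 4-fold. The probe nearest the 3′ end gave 1 lower in fetal liver and 3 and 0 higher between sources in wild-type and Ezh2-null MEP, against 5 and 2. Spike-in scaling gave a fetal liver median of 0.91, 15 higher and 1 lower between sources in wild type (median 1.15), and 8 higher and 12 lower in Ezh2-null MEP (median -0.27). Removing the position trend gave medians of 0.24 in fetal liver and -0.97 between sources in Ezh2-null MEP. The percentile over all probes gave 2 higher in bone marrow, 3 lower between sources in wild type, 6 higher in Ezh2-null MEP (median -0.52) and 5 called for source. Quantile normalization gave 2, 4, 4 (median -0.59) and 1 for these. Of all genes, the percentile over all probes called 5.50%, 15.1% and 22.7% in these 2-fold counts, in the same order. Quantile normalization called 4.86%, 16.1% and 16.3%. With no background filter, 3 were higher in bone marrow, where 5.70% of all genes were. Between sources in wild type, 8 were higher and 11 lower (median -0.36), where 9.31% and 31.7% of all genes were. In the difference of the genotype differences 14 reached 4-fold, and limma called 2 for genotype and 5 for source. The cause of these moves was not tested.

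For the 24 genotype differences past 2-fold in single members, 183 of 224 values under the alternatives were still past 2-fold in the same direction. For members with a single probe, averaging the probes or taking the one nearest the 3′ end could not change the value. The Arid1a fetal liver difference reversed, to 0.50 with all probes averaged and 0.53 with the probe nearest the 3′ end. Of all bone marrow genes past 2-fold, 37.0% were higher in Ezh2-null MEP, against 45.9% with the percentile over all probes, 45.4% with quantile normalization and 46.6% with normexp. Between sources in wild type this share was 29.1%, against 54.9%, 51.9% and 11.9% in that order and 95.1% with spike-in scaling. In Ezh2-null MEP it was 27.9%, against 64.2% with the percentile over all probes, 52.3% with quantile normalization and 74.5% with spike-in scaling. Members above background on only 1 array of a comparison have bounds. The lowest detected signals of the arrays ran from 9.79 to 19.3 units. Some measured differences also rest on signals in that range, such as that of Smarcc2, at 18.8 units in Ezh2-null fetal liver.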
